A study of Homo sapiens with 8 samples.

Results

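The genes described here encode the proteins of the cytosolic ribosome. They were taken from the HT29 table by symbol: RPL or RPS followed by a number and at most one of the letters A, X or L, together with RPLP0, RPLP1, RPLP2, RPSA and FAU, which leaves out the pseudogenes. The rule found 81 of the 38148 genes in the table. Of these, 42 encode proteins of the large subunit, 32 encode proteins of the small subunit, 3 encode the stalk proteins RPLP0, RPLP1 and RPLP2, and 4 (RPL3L, RPL10L, RPL39L and RPS27L) are like-named copies of other members. They lie on 21 chromosomes, with 12 on chromosome 19.

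HT29 is a human colorectal cancer line that carries mutant BRAF, and selumetinib blocks MEK, the kinase upstream of ERK. Cells were left untreated or given 1 μM selumetinib for 24 h, and glyoxal fixation and an antibody to cyclin B1 (encoded by CCNB1 and abundant in G2) let cells without and with this protein be collected separately for poly(A) mRNA-seq. Each treatment thus gave a CCNB1-negative and a CCNB1-positive group, and each of the 4 groups had 2 libraries. Separate cultures are not stated for the 2 libraries of a group, so p-values measure the spread between libraries, which may be technical.

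The sample title and the sample description contradict each other in treatment and also in fraction, and they do so for all 8 libraries. Groups follow the descriptions, which are also the column names of the table. If the titles were right, the 2 fractions would exchange their treatment responses and every sign would turn, so members reported as lower would be higher. The comparisons of fractions would exchange treatments and turn in the same way, and the difference between the responses would not move. With the descriptions, CCNB1 stood at 11.83 ± 0.25 and 13.92 ± 0.19 (mean ± SD of log2 values, n = 2) in untreated negative and positive cells and at 7.57 ± 0.49 and 12.65 ± 0.16 in treated ones. The ERK targets DUSP6, SPRY4, ETV4 and ETV5 were lower with treatment in both fractions. With the titles, CCNB1 would be higher in CCNB1-negative than in CCNB1-positive cells, and these targets would be higher with treatment. Reads on genes ranged from 12696860 to 23916160 per library. Summed levels of 9 epithelial markers stood at 9949 to 11033 RPM (reads scaled to 1000000 per library) in untreated and 4581 to 8254 RPM in treated libraries. Those of 8 markers of other cell types stood at 1.83 to 2.17 and 3.70 to 7.31 RPM, and 1 of them, COL1A1, was tested and was higher with treatment in both fractions (1.81 and 2.19). In both sums the untreated and treated libraries did not overlap. KRT8 and KRT18 (means of 4040 and 3080 RPM) made up most of the epithelial sum. Of the 9 epithelial markers, limma called 4 lower and 2 higher in negative cells, against 35.8% and 38.2% of all tested genes. In positive cells it called 2 lower and 3 higher, against 27.3% and 38%. The part of these markers in the results was not tested.

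Ribosomal proteins surround the ribosomal RNAs and are needed in equal numbers, 1 copy of each in most cases. Their mRNAs are among the most abundant of a growing cell and typically begin with a run of pyrimidines, the terminal oligopyrimidine motif. That motif lets LARP1 and the mTOR pathway hold back or release their translation, and in colorectal cancer cells ribosome production is tied to growth signals that include ERK and MYC. Levels of mRNA are measured here, and translation is not.

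The starts of several genes are shown as examples. RPL17, RPL21 and FAU had large falls with selumetinib, and RPS27 and RPL28 were among the smallest differences. RPS4X and RPS27L hold no run of pyrimidines as marked below. Each stretch runs from 50 bases before to 20 bases after the first base of a RefSeq start (GRCh38.p14). All are written in the sense of the gene. Capitals mark the longest uninterrupted run of at least 8 C or T that reaches within 20 bases of the start. Where a gene has several starts, the start with the longest such run is shown.
RPL17 (chr18:49492446-49492515, minus strand): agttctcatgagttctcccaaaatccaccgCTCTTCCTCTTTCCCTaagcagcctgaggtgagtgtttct
RPL21 (chr13:27251508-27251577, plus strand): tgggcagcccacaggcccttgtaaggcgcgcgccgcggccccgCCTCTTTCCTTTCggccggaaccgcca
FAU (chr11:65122115-65122184, minus strand): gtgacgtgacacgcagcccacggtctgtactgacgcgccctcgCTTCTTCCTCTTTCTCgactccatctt
RPS27 (chr1:153990712-153990781, plus strand): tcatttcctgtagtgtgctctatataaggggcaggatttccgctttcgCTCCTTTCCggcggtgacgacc
RPL28 (chr19:55385882-55385951, plus strand): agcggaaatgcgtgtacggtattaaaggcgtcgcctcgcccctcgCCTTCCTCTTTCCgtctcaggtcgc
RPS4X (chrX:72277229-72277298, minus strand): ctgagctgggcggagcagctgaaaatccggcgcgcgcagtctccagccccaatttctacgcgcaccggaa
RPS27L (chr15:63157458-63157527, minus strand): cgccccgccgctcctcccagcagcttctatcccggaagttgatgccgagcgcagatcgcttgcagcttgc

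RefSeq starts were found for 64 of the 81 members. The members without an entry included RPL3L, RPL30, RPL7, RPS15A, RPL8, RPS20, RPL5, RPS2, RPL39L, RPL23A, RPL37 and RPL23. Some genes have several starts, which gave 78 member promoters. A pyrimidine run as defined above was present in 82.1% of the member promoters, against 21.9% of all promoters in the table, 20.5% of those of tested genes and 12.9% of those of mitochondrial ribosomal protein genes, whose products are made for another ribosome. The run included the start itself in 56.4% of member promoters and in 4.23% of all promoters. The ETS-type motif CCGGAAG, on either strand within 250 bases before to 50 after the start, was in 34.6% of member promoters, against 10.3% of all, 17.2% of those of tested genes and 38.8% of those of mitochondrial ribosomal protein genes. The E-box CACGTG was in 5.13%, against 7.26%, 9.42% and 10.6%, and TATAAA, on the sense strand, in 3.85%, against 7.33%, 3.88% and 1.18%. RPL28, whose difference was smallest, and RPL21, with a large fall, both hold a run of 13 pyrimidines. For the 63 tested members with an entry, the run length was taken at the start with the longest run. This length and the log2 difference had r of -0.08 in negative and -0.12 in positive cells, given as a description.

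In untreated cells the 81 genes took a large share of all reads. Without treatment they held 7.09% and 8.81% of reads on genes in the libraries of CCNB1-negative cells and 6.67% and 7.66% in those of CCNB1-positive cells. With selumetinib the shares were 4.68% and 4.66% in negative and 4.81% and 5.68% in positive cells. Every treated library was below every untreated library. In the same libraries the mitochondrially encoded genes held 4.44% to 7.80% of reads without and 11.9% to 14.8% with treatment, and the nuclear RNA MALAT1 held 0.30% to 0.39% and 2.01% to 4.42%. Set against reads on nuclear genes other than MALAT1, the ribosomal protein genes held 7.72%, 9.25%, 7.17% and 8.09% in the untreated and 5.68%, 5.59%, 5.69% and 6.68% in the treated libraries, in the same order, so the untreated and treated libraries stayed apart. The part of these RNAs and of RNA quality in the result was not tested, and in bulk samples fewer cells with a transcript and less of it per cell cannot be told apart.

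**Figure D1:**
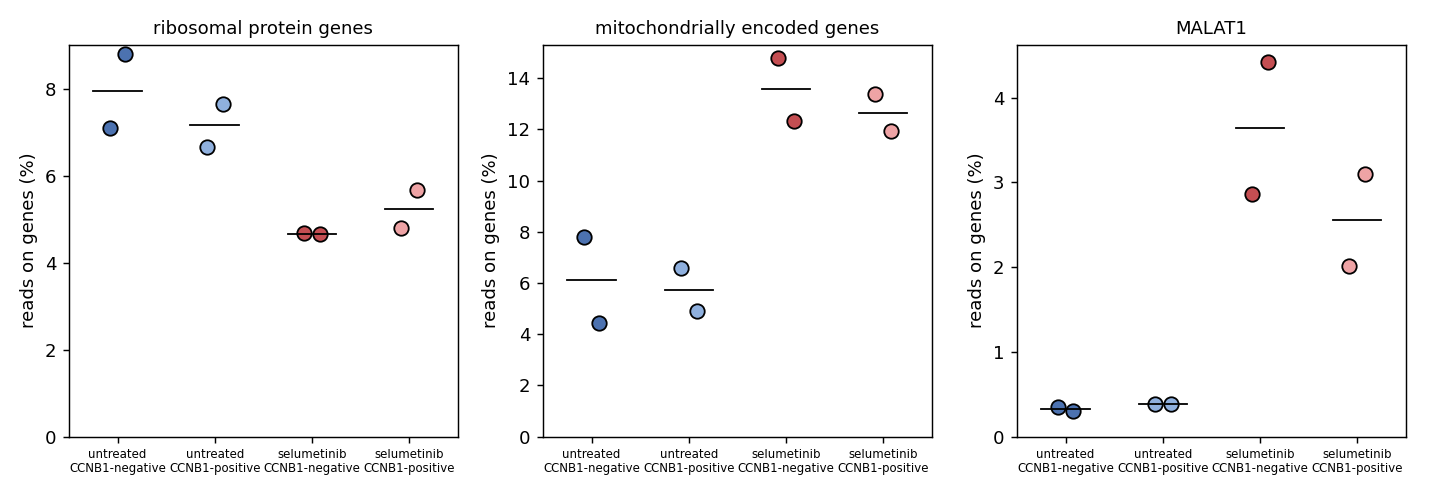
Share of reads on genes (%, linear axes from 0) taken by the ribosomal protein genes, the mitochondrially encoded genes and MALAT1 in each of the 8 libraries; points are libraries and bars are means of 2. Ribosomal protein genes held 6.67% to 8.81% in untreated and 4.66% to 5.68% in treated libraries, while the shares of the other RNAs were higher in treated libraries.

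Levels per gene length were compared as RPM per kb of the canonical transcript (RPKM). Among the 5 highest mean levels over the 8 libraries were those of RPS21 (2873 RPKM), RPS18 (2763 RPKM), RPLP2 (2437 RPKM) and RPL18 (2372 RPKM), and the median of tested members was 704 RPKM. This order depends on the transcript taken for the length. With the transcript of median length, a choice added after the data were seen, RPLP1 (4468 RPKM) and RPS19 (3668 RPKM) came first. RPS18 and RPL18 were among the 5 highest by either length.

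The like-named copies were at the other end. Between 0 and 3 reads per library fell on RPL39L and RPL10L, and between 0 and 9 on RPL3L, a copy known from striated muscle. RPL3, RPL10 and RPL39 themselves were all tested. These 3 copies did not reach the mean of 1 RPM asked of genes that were tested, which left 78 members among 14219 genes. The fourth copy, RPS27L was well measured, with 554 to 2057 reads per library.

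In CCNB1-negative cells, ribosomal protein mRNAs were lower after selumetinib as a group. Of the 78 tested members 74 were lower and 0 were higher at an adjusted p under 0.05 in limma with Benjamini-Hochberg adjustment, whereas over all tested genes 35.8% were lower and 38.2% were higher. The median log2 difference of the members was -0.99, against 0.05 for all tested genes, and single members ranged from -1.58 to -0.03. Both treated libraries lay below both untreated libraries for 77 members, against 41.9% of all tested genes. With quantile normalization, which forces all libraries to one distribution, 35 members were lower and 1, RPL28, was higher. The shares of all tested genes called under this scaling are not given here. The median was then -0.33, against -0.07 for all tested genes. The level that 99% of tested genes lie below fell by 0.68 on the log2 scale between these groups, and the median member stood between the 98.8th and the 99.3rd percentile of tested genes in every library.

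The large subunit held the largest falls. RPL17, a protein at the exit of the peptide tunnel (ENSG00000265681, chromosome 18, 49488453 to 49492523 of GRCh38), stood at 12.90 and 13.44 in untreated and 11.68 and 11.50 in treated CCNB1-negative libraries on the deposited log2 scale, and at 12.82 and 13.17 against 11.77 and 11.80 in CCNB1-positive libraries. The untreated and treated libraries did not overlap in either fraction. Its log2 difference was -1.58 ± 0.19 (SE; limma adjusted p = 4.07e-06) in negative and -1.21 ± 0.19 (limma adjusted p = 8.25e-05) in positive cells. RPL7 stood at 13.92 and 14.62 untreated and 12.91 and 12.60 treated in negative cells, a difference of -1.52 ± 0.23, and RPL21 at 11.80 and 12.26 against 10.66 and 10.44, a difference of -1.48 ± 0.18. Both are large subunit proteins, and in positive cells they differed by -1.08 and -0.99, with adjusted p of 0.000896 and 0.000297 in limma. RPL4, the third lowest member in positive cells, differed by -1.27 ± 0.20 in negative and passed in positive cells (limma adjusted p = 0.000737). The annotation names 133 pseudogenes after RPL21 and 1559 after the members in all. The handling of reads that map to several places is not stated, so the values of such genes are uncertain.

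RPL5 and RPL11 form a particle with the 5S ribosomal RNA that can bind MDM2. RPL5 was lower in negative (-1.32 ± 0.20, limma adjusted p = 4.12e-05) and positive cells (-0.96 ± 0.20, limma adjusted p = 0.00089). RPL11 stood at 15.29 and 15.58 untreated and 14.64 and 14.60 treated in negative cells, a fall of 0.82 (limma adjusted p = 0.0029), and at 15.19 and 15.37 against 14.66 and 14.93 in positive cells (-0.48 ± 0.21, limma adjusted p = 0.0563). With quantile normalization the RPL11 difference in negative cells was 0.08. The partners RRS1 and BRIX1, which help to place that particle in the large subunit, were lower by more than RPL5, at -2.72 and -2.80 in negative and -2.40 and -2.01 in positive cells. MDM2 (-0.23 and -0.01) did not pass the test in either fraction. MDM4, its relative, was higher in both (0.59 and 0.49, limma adjusted p = 0.00675 and 0.0221), and the CDK inhibitor gene CDKN1A was higher in positive cells (1.66, limma adjusted p = 0.00899) and at 0.37 in negative cells.

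In the small subunit, RPS6, the substrate of the S6 kinases, stood at 15.50 and 15.79 untreated and 14.66 and 14.55 treated in negative cells and at 15.47 and 15.67 against 14.76 and 14.86 in positive cells. Its differences were -1.04 ± 0.21 (limma adjusted p = 0.00044) and -0.76 ± 0.21 (limma adjusted p = 0.00565). RPSA, also known as the laminin receptor precursor, differed by -1.27 ± 0.16 and -0.88 ± 0.16, and RPS4X, which is encoded on the X chromosome, by -1.06 ± 0.20 and -0.71 ± 0.20. FAU and RPS27A are made as fusions to ubiquitin-like and ubiquitin domains. FAU differed by -1.26 ± 0.16 and -0.71 ± 0.16, and RPS27A by -1.13 ± 0.20 and -0.69 ± 0.20, and all 4 of these genes passed the test in both fractions.

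Among the stalk proteins, which recruit the elongation factors, RPLP0 stood at 14.56 and 14.98 untreated and 13.71 and 13.49 treated in negative cells, a difference of -1.17 ± 0.20 (limma adjusted p = 0.00013). RPLP1 and RPLP2, which bind RPLP0 as dimers, had smaller differences of -0.68 ± 0.22 and -0.67 ± 0.20. All 3 passed the test in negative cells, while in positive cells RPLP0 alone did (-0.70 ± 0.20), with RPLP1 at -0.39 ± 0.22 and RPLP2 at -0.32 ± 0.20. With quantile normalization RPLP2 was at 0.17 in negative cells.

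Of the tested members 4 passed in neither fraction, among them RPL28, RPS27 and RPS19. RPL28, a large subunit protein (ENSG00000108107, chromosome 19, 55385345 to 55403250), stood at 14.57 and 14.50 untreated and 14.46 and 14.55 treated in negative cells, and at 14.45 and 14.50 against 14.59 and 14.72 in positive cells. The libraries of negative cells overlapped. The RPL28 difference was -0.03 ± 0.18, with a 95% interval from -0.42 to 0.36, in negative cells and 0.17 ± 0.18 in positive cells, and with quantile normalization it was 0.80 in negative cells. RPS27 stood at 13.14 and 13.70 untreated and 13.10 and 13.09 treated in negative cells, so that 1 untreated library lay close to the treated ones. Its differences were -0.32 ± 0.20 and -0.06 ± 0.20. RPS19, mutated in Diamond-Blackfan anaemia, differed by -0.45 ± 0.22 and -0.16 ± 0.22.

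**Figure D2:**
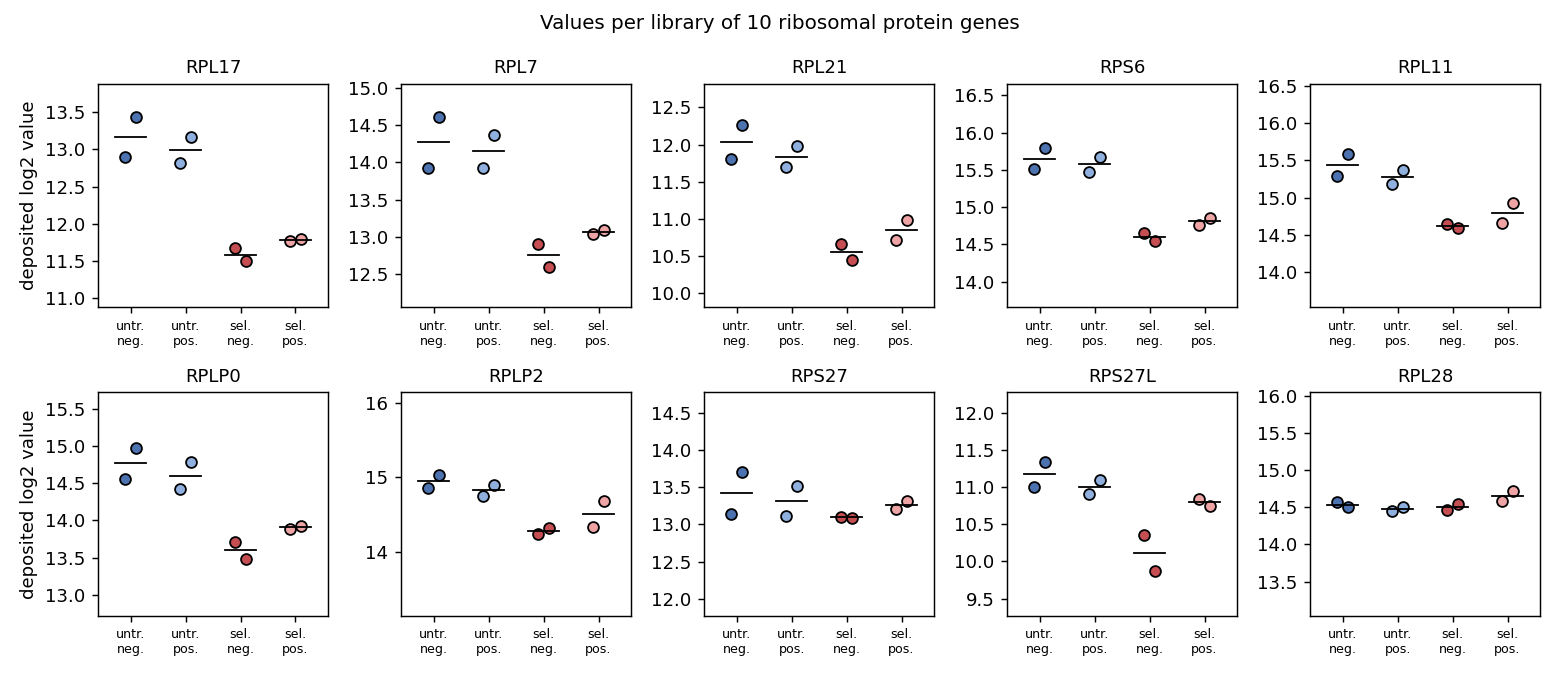
Deposited log2 values (normalized to total reads) of 10 members in each library; points are libraries, bars are means of 2, and every panel spans 3 log2 units. RPL17, RPL7 and RPL21 were lower in all treated libraries, whereas RPL28 stayed between 14.45 and 14.72 in all 8.

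In CCNB1-positive cells the group was lower too on the deposited scale. Of the 78 members 55 were lower and 0 were higher in limma, against 27.3% and 38% of all tested genes, and 77 lay below 0. The median difference was -0.57, against 0.17 for all tested genes, and the range was -1.21 to 0.17. The level that 99% of tested genes lie below shifted by -0.65 between these groups. Over all tested genes, r between mean level and the selumetinib difference was -0.36 in negative and -0.44 in positive cells. The part of expression level in the result was not tested. Both treated libraries lay below both untreated libraries for 69 members, against 37.1% of all tested genes. All 55 were also lower in negative cells, and 19 more were called in negative cells alone. The count was 22 without untreated CCNB1-positive replicate 2 and 27 without selumetinib CCNB1-positive replicate 1. With quantile normalization 8 members were lower and 3 (RPL28, RPL37 and RPS27) were higher. The shares of all tested genes called under this scaling are not given here. The median was then -0.05, against -0.08 for all tested genes, so the median member was not below that of all tested genes. With reads on nuclear genes other than MALAT1 as the total 36 were lower.

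Across the 78 members the differences in the 2 fractions had r = 0.94. The fractions share no library, but their responses may not be independent. Over tested genes, deviations of same-numbered libraries had r = 0.35 between untreated and 0.43 between treated fractions. The order of the members was alike from RPL17 to RPL28. RPS27L departed from this order. It stood at 11.004 and 11.34 untreated and 10.36 and 9.88 treated in negative cells, and at 10.90 and 11.09 against 10.84 and 10.75 in positive cells. The difference was -1.05 ± 0.18 (limma adjusted p = 0.000108) in negative and -0.20 ± 0.18 (limma adjusted p = 0.33) in positive cells.

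**Figure D3:**
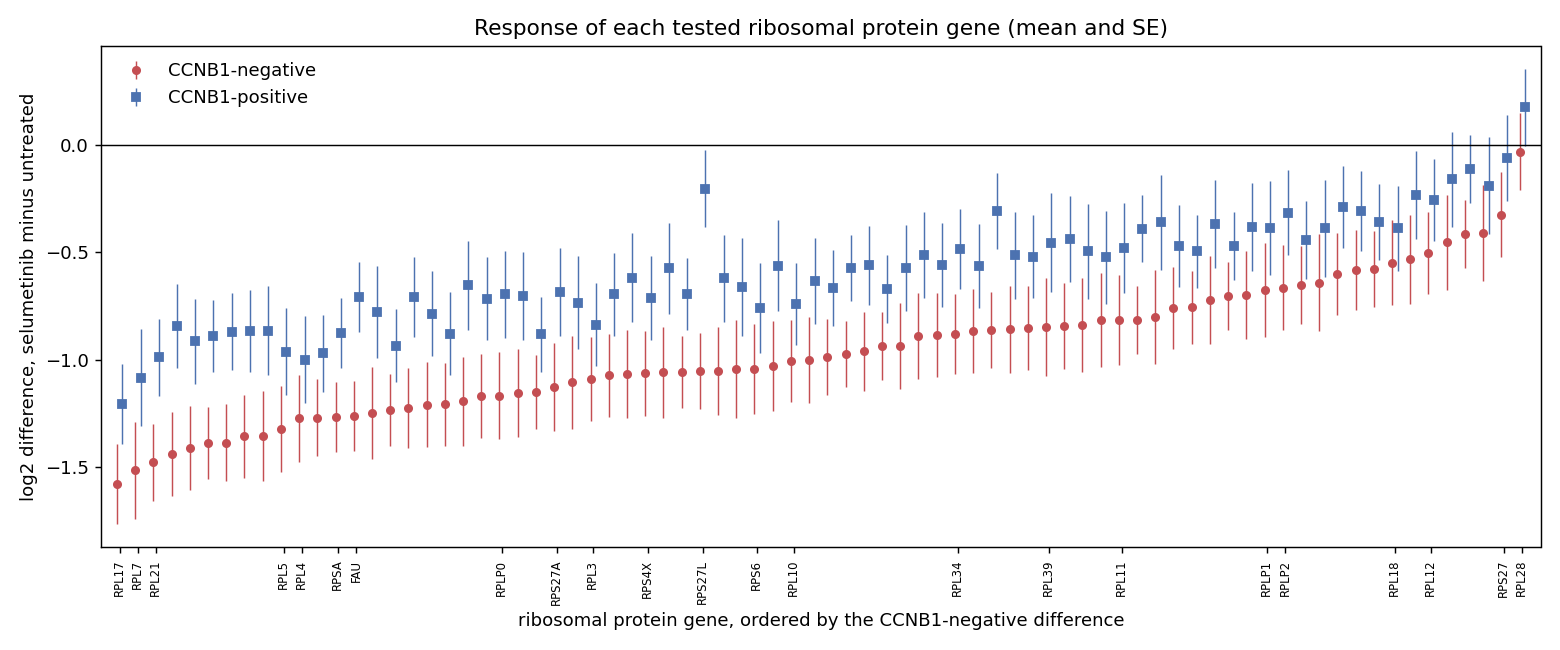
Log2 difference of selumetinib minus untreated libraries for each of the 78 tested members in CCNB1-negative (circles) and CCNB1-positive cells (squares), ordered by the former, with some members named on the axis; lines are SE from limma. Medians were -0.99 and -0.57. With quantile normalization they were -0.33 and -0.05, against -0.07 and -0.08 for all tested genes.

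Between the fractions of untreated cells, 0 members were higher and 0 were lower, against 1.36% and 1.51% of all tested genes in limma. An unadjusted p under 0.05 was reached by 0 members, and limma-voom on the recovered reads also called 0. The median difference, positive minus negative, was -0.16, and it rested on single libraries. It was -0.34 without untreated CCNB1-negative replicate 1 and 0.02 without replicate 2, and -0.03 and -0.28 without untreated CCNB1-positive replicates 1 and 2. With GC and length trends removed it was 0.003, so no direction is given. The members at the ends were RPL34 (-0.33 ± 0.19), RPS20 and RPS27A at the low end and RPL3 (0.05 ± 0.19), RPL10A and RPL23A at the high end. Between the fractions of treated cells the median was 0.21, and it was 0.32 and 0.10 without selumetinib CCNB1-positive replicates 1 and 2 and 0.11 with quantile normalization or median centring. RPS27L was higher in positive cells by 0.68 ± 0.18 (limma adjusted p = 0.0166) and was the 1 member called, against 13.8% higher and 7.87% lower of all tested genes. The count was 0 without either selumetinib CCNB1-positive library or without selumetinib CCNB1-negative replicate 2. RPL23A (0.44 ± 0.19) and RPL35 (0.42 ± 0.21) followed without passing, and RPL34, RPL18 and RPL12 were lowest at 0.06, 0.06 and 0.07. These calls depend on pairing, which the labels do not state. With same-numbered libraries taken as pairs, 15 members were higher between treated fractions, RPL23A and RPL35 among them. Between untreated fractions 1, RPL34, was then lower. Shares of all tested genes called with these pairs are not given here, so no result is drawn from these counts.

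The difference between the responses, positive minus negative, was above 0 for all 78 members, with a median of 0.36 against 0.11 for all tested genes. Without untreated CCNB1-negative replicate 2 the median was 0.17 against 0.13 for all tested genes, without replicate 1 it was 0.54, and without replicate 1 of untreated or replicate 2 of selumetinib CCNB1-positive cells it was 0.24 and 0.23. With the length trend removed it was 0.15. In limma 0 members passed, against 4.99% higher and 0.345% lower of all tested genes. An unadjusted p under 0.05 was reached by 4 members, and limma-voom called 0. With same-numbered libraries taken as pairs, which the labels do not state, 18 members had a higher response in positive cells. The share of all tested genes called with these pairs is not given here, so no result is drawn from this count. RPS27L had the largest value, 0.85 ± 0.25 (limma adjusted p = 0.0721), followed by RPS15A at 0.60 and FAU at 0.55, and RPL18 (0.16), RPL28 (0.21) and RPL13 (0.21) had the smallest. Without untreated CCNB1-negative replicate 1 or selumetinib CCNB1-negative replicate 1, 1 member passed.

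Genes that work with the ribosomal proteins were also lower on the deposited scale, the only one read for these lists. Over all tested genes 35.8% were lower in negative and 27.3% in positive cells. All 6 ribosomal protein genes that the rule does not take in, among them RACK1, a scaffold on the small subunit (-1.17 and -0.89), were lower in both fractions. Of 19 translation factors and related genes whose mRNAs carry the pyrimidine motif, 17 were lower in negative and 15 in positive cells and 0 were higher, with NPM1 (-2.64 and -2.001) and the elongation factor EEF1A1 (-2.08 and -1.42) lowest. All 11 carriers that escort ribosomal proteins before assembly were lower in both, including BCCIP, which carries RPL23 (-2.31 and -1.75), GRWD1, which carries RPL3 (-2.16 and -1.64), and TSR2, which carries RPS26 (-1.31 and -0.74). The mitochondrial ribosomal protein genes were lower in 76 of 78 cases in negative and 70 of 78 in positive cells, with medians of -1.35 and -0.93.

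Of 13 regulators of pyrimidine-motif translation, 3 were higher and 4 lower in negative cells, where 38.2% and 35.8% of all tested genes were, and 3 were higher and 5 lower in positive cells, where 38% and 27.3% were. The shares of the list were 23.1% and 30.8% in negative and 23.1% and 38.5% in positive cells. With 13 genes, no result about the list is drawn from them. TSC1 (1.23 and 0.87) and TSC2 (1.37 and 0.86), which together restrain mTOR, and LARP1B (0.65 and 0.50) were higher in both fractions. EIF4EBP1, the repressor of EIF4E, was lower (-2.48 and -1.45), as were EIF4E (-1.10 and -1.12), RHEB and RPS6KB2, while LARP1 (-0.20 and -0.37) and MTOR (-0.15 and -0.29) did not pass.

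**Figure D4:**
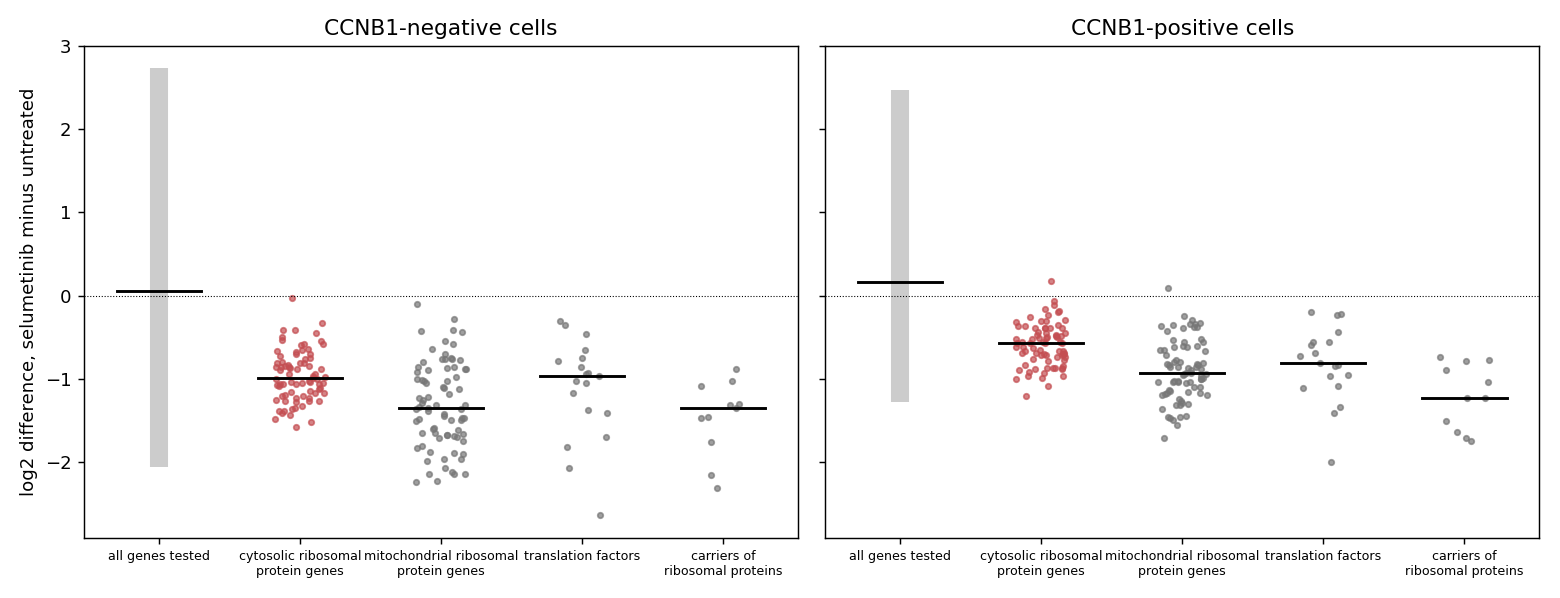
Log2 difference of selumetinib minus untreated libraries in each fraction for the tested genes of 4 lists (points are genes, bars are medians); the grey bar spans the 5th to 95th percentile of all tested genes, -2.06 to 2.73 in negative and -1.28 to 2.47 in positive cells. Medians of cytosolic ribosomal protein genes were -0.99 and -0.57, and those of mitochondrial ribosomal protein genes -1.35 and -0.93. With quantile normalization the cytosolic medians were -0.33 and -0.05, against -0.07 and -0.08 for all tested genes.

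Within the members, the difference varied with base composition. The 48 members with under 50% GC in the canonical transcript had a median of -1.06 in negative and -0.67 in positive cells, the 16 with 50% to 55% had -0.95 and -0.56, and the 14 with 55% or more had -0.73 and -0.43. Across the 78 members r with GC was 0.35 and 0.28, and across all tested genes 0.002 and -0.01, and the points share libraries and depth. With the median-length transcript r was 0.41 and 0.32. Against log2 length r was 0.06 and 0.07 with the canonical transcript and -0.23 and -0.30 with the median-length one, so no direction with length is given. Members with more named pseudogenes had lower values, with r of -0.31 and -0.34. The part of GC content and of shared reads in the result was not tested. Of the members, 28 hold a small nucleolar RNA gene and 32 overlap a gene on the opposite strand, and the use of strand in counting is not stated.

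**Figure D5:**
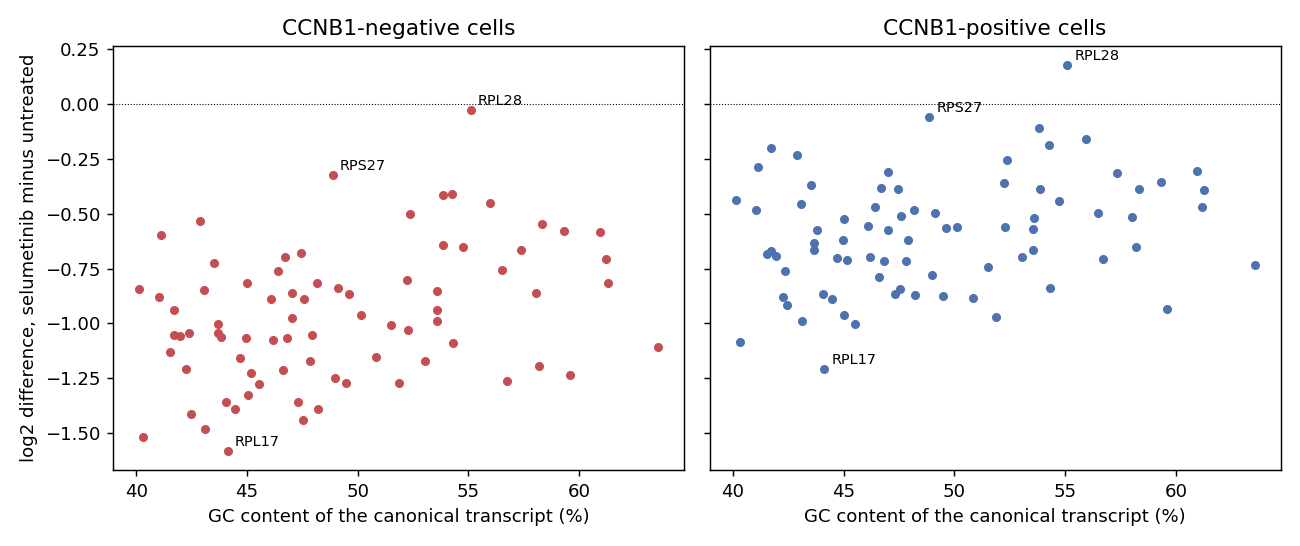
Log2 difference of selumetinib minus untreated libraries against GC content (%) of the canonical transcript for the 78 tested members (points) in each fraction. Values were higher at higher GC, with r of 0.35 and 0.28, and RPL28 lay above the other members in both.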

How the data were processed

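HT29 mRNA-seq libraries (8, in 4 groups) were analysed from 1 table. Per the labels and methods, the authors used Trim Galore 0.5.0 for trimming, HISAT2 2.1.0 for alignment to GRCh38, SeqMonk for counting and DESeq2, not run here, for tests; the annotation release, strand use and handling of multiply mapped reads are not given in the sources used here. The labels and methods name different growth media. The deposited values are log2 reads normalized by the authors to the total read count, with genes without reads at 0.9 reads. In each library 100% of the values above the lowest gave back whole reads (relative tolerance 0.0001). Without molecular identifiers, depth speaks to counting error only. Of the value columns, 0 were set aside.

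The 14219 genes whose mean log2 value was at least 4.58 (1 RPM) entered a limma 3.58.1 fit (R 4.3.3, trend option on, 1 coefficient for each of the 4 groups) of the deposited log2 values, with Benjamini-Hochberg adjustment over all of them and a threshold of 0.05. Differences of low genes are understated by the value set for 0 reads. On simulated data for the CCNB1-negative comparison (14219 genes, 200 changed), 88% of 2-fold and 100% of 4-fold changes were recovered and 7 of 195 calls were false. The simulation drew the noise of each gene independently, without shifts shared by many genes of a library. Far more genes were called in the data, so these rates need not hold there. Replicates differed by more than sampling noise (chi-square per gene 15.6 to 30.2).

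Members and lists were chosen with earlier results of these data known. Named members are the 3 highest and 3 lowest in each comparison, the 5 highest per kb, the copies with their originals, and RPLP0, RPLP1, RPLP2, RPSA, FAU, RPS27A, RPS6, RPL5, RPL11 and RPS4X; RPS19 and RPL37 were named after their values were seen, and the values of some genes are not reported here. Lengths and GC come from the canonical transcript of GENCODE 44, which held 99.3% of identifiers. After the per-kb levels and GC relations had been seen, the median-length transcript was substituted because some canonical transcripts are very long (up to 7573 bases); it left RPL14 at 7072 bases, so the canonical transcript was restored and both are given. Promoters are from RefSeq (GRCh38.p14). Alternatives were other thresholds and filters, a pseudocount, other scalings, length and GC trends removed, blocks, limma-voom, and leaving out each library; the GC trends and the median-length transcript were added after seeing the data. Python 3.11.15 with pandas 2.3.3, numpy 2.4.6, scipy 1.17.1 and matplotlib 3.10.9 did the rest.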

Additional observations from a re-analysis of the deposited data

How the results depend on the processing

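Members lower with selumetinib numbered 74 in negative and 55 in positive cells. Quantile normalization gave 35 lower and 1 higher, and 8 lower and 3 higher. Its medians were -0.33 and -0.05, against -0.07 and -0.08 for all tested genes. It put 15 members above 0 in negative and 31 in positive cells, against 0 and 1 as deposited. Among the named members with a call under either scaling, it turned the negative-cell differences of RPL11 (0.082), RPL12 (0.18), RPL13 (0.11), RPL18 (0.26), RPL28 (0.80), RPLP2 (0.17) and RPS21 (0.042) and the positive-cell differences of RPL13 (0.15), RPL34 (0.026) and RPS27 (0.48). In positive cells 33 were lower with no filter, 34 at an adjusted p under 0.01 and 36 with nuclear genes without MALAT1 as the total; that total gave shares of 5.64% and 6.18% in treated negative and positive cells. With length, GC, or both trends removed, 74 to 75 and 67 to 75 were lower with the canonical transcript and 73 to 74 and 67 to 72 with the median-length one. Leaving out 1 library gave 59 to 75 in negative and 22 to 56 in positive cells. Shares of all tested genes called under these alternatives are not given here, so the counts have no such share beside them. The cause was not tested.

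Between the fractions of treated cells 1 member was higher; the count was 0 at an adjusted p under 0.01, 2 with GC and length trends removed (with either transcript) and 0 to 1 without 1 library, and for the difference between responses it was 0 to 1 without 1 library. Replicate numbers were not taken as pairs: deviations of same-numbered libraries had r = 0.35 between untreated and 0.43 between treated fractions and -0.09 to 0.08 otherwise, with 2 pairs in each comparison. With the replicate block 75 and 61 members were lower. With the pair replicate block 1 was lower between untreated fractions, 15 were higher between treated fractions and 18 had a higher response in positive cells. Shares of all tested genes called with either block are not given here.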
